A study of Mus musculus with 6 samples.

Results

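Alpha and beta tubulins were followed in 6 mouse livers through every array probe that carries the name of 1 of 10 genes: the beta tubulins Tubb2a, Tubb2b, Tubb4b, Tubb5 and Tubb6 and the alpha tubulins Tuba1a, Tuba1b, Tuba1c, Tuba4a and Tuba8. A probe of 9 of the 10 genes was found by name, with 16 probes in all among the 41174 that are not controls. The tested probes of the data set carried 18904 distinct gene names, counting the array file's own name where no RefSeq name matched. Tuba1b had no probe under its name, so its signal is not analysed here. The 10 genes were put together with their difference between exposed and control livers already in view, so those differences are given as a description and carry no test of their own.

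The livers came from male BALB/c mice that were 6 weeks old when exposure began. The exposed group (MC-LR, n = 3) drank water with microcystin-LR at 100 µg/L for 12 months, and the control group (n = 3) drank sterile water for the same 12 months. Microcystin-LR is a cyclic peptide toxin of cyanobacteria that inhibits the serine/threonine phosphatases 1 and 2A and is carried into hepatocytes by organic anion transporters. Each liver came from a different mouse per the study's design text and had a Cy3 array to itself. Whole tissue was used, so fewer cells of a type and less RNA per cell cannot be told apart.

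Microtubules are hollow polymers of heterodimers that each hold an alpha and a beta tubulin, and the isotypes are encoded by separate genes whose proteins differ mainly in their carboxy-terminal tails. Cells adjust tubulin mRNA to the pool of free heterodimer, because ribosomes that begin to translate tubulin are recognised at the amino terminus of the new chain by Ttc5, after which the mRNA is degraded. In hepatocytes microtubules carry secretory vesicles with plasma proteins and lipoproteins to the blood side of the cell and transporters to the bile canaliculus.

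The arrays were alike at the level of the whole transcriptome. Across probes, r between any pair of livers was 0.982 to 0.994, 64.9% to 73.7% of spots per array lay well above background, and 0 spots were saturated. Controls 1 and 2 were hybridised on slide 1, and control 3 with the 3 MC-LR arrays on slide 2, which was also scanned separately, so only control 3 shares a slide with the exposed livers. The share of spots well above background split by slide, at 68.3% and 64.9% in controls 1 and 2 and 71.1% to 73.7% on slide 2. Of 7 hepatocyte markers, 6 had a probe under their name and were measured, with a mean log2 signal of 14.88 to 15.07 in controls and 14.92 to 15.02 with MC-LR. The number of arrays limits the precision of every value.

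Most tubulin probes gave lower signal in the exposed livers. Of the 16 probes, all of which were well above background on all 6 arrays, 14 had a lower mean with MC-LR and 2 a higher one, with a median log2 difference of -0.61 (MC-LR minus control). Over the 28500 probes tested the median was 0.002, and 49.6% lay below 0. For 11 of the 16 the 3 MC-LR arrays all lay below the 3 control arrays, an arrangement that 8.55% of all tested probes showed. For 1 the MC-LR arrays all lay above, which 11.7% of all tested probes showed. At an adjusted p under 0.05 by limma, 0 of the 16 passed in a fit in which 3 of 28500 probes passed (0.0105%). At an unadjusted p under 0.05 by limma the count was 12 of the 16, beside 12.9% of all tested probes. Because the genes were chosen from this same contrast, nothing is read from these counts.

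**Figure D1:**
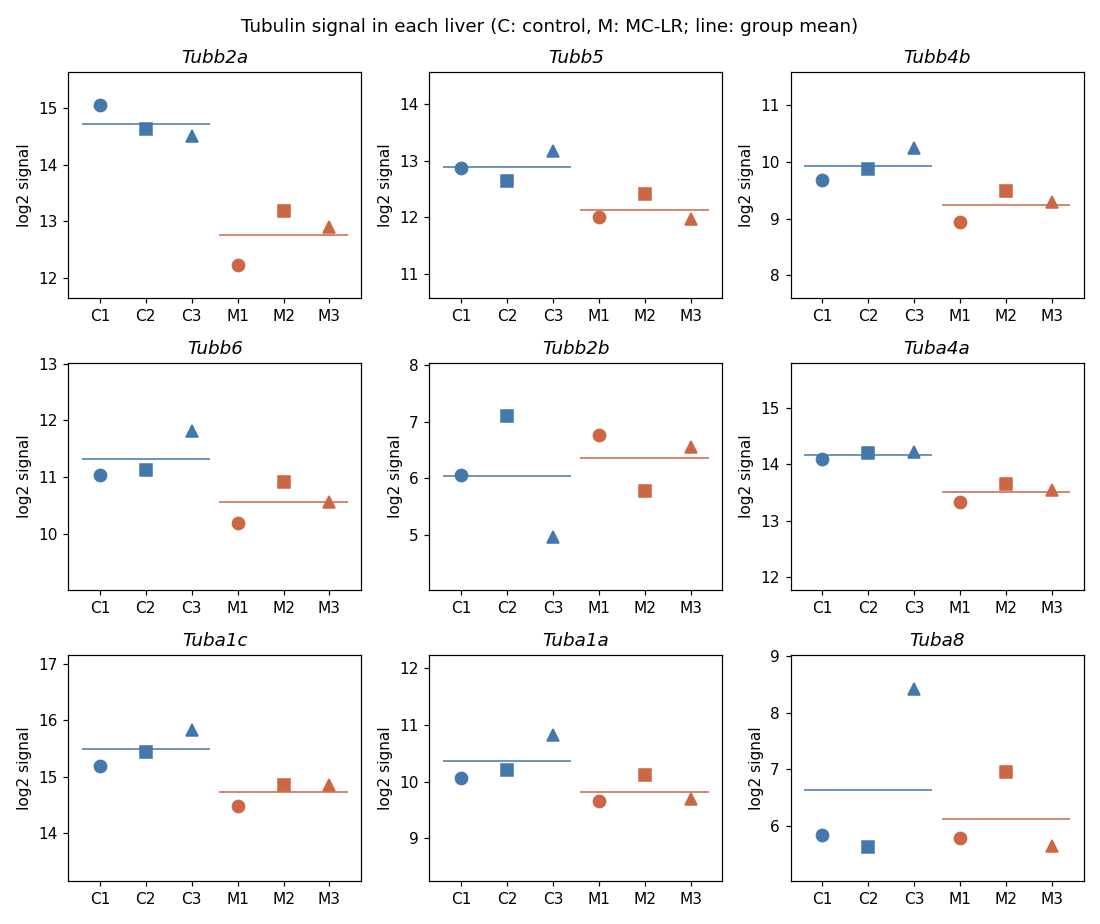
Normalized log2 signal (vertical axis) of the brightest probe of each of the 9 tubulin genes in each of the 6 livers (horizontal axis; C1 to C3 controls, blue; M1 to M3 MC-LR, orange), with group means as lines; every panel spans 4 log2 units. The groups lie apart for Tubb2a, Tubb5, Tubb4b, Tubb6, Tuba4a and Tuba1c, and they overlap for Tubb2b, Tuba1a and Tuba8.

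Among the beta tubulins, Tubb2a had the largest difference. Tubb2a encodes a class II beta tubulin, an isotype that is abundant in brain. Its brightest probe, A_51_P490023, read 15.05, 14.62 and 14.50 in controls 1, 2 and 3 and 12.22, 13.17 and 12.89 in MC-LR 1, 2 and 3 (normalized log2 signal). The groups did not overlap, and the highest exposed liver lay more than 1 log2 unit below the lowest control. The mean was 14.72 ± 0.29 in controls and 12.76 ± 0.49 with MC-LR (SD, n = 3 per group), a difference of -1.96 ± 0.33 (SE), or 3.89-fold lower. Ranked from the most negative, this probe stood at place 15 among the 28500 differences.

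A second Tubb2a probe, A_51_P103659, gave almost the same picture. It read 10.07, 9.65 and 9.54 in the controls and 7.58, 8.33 and 8.11 with MC-LR, a difference of -1.75 ± 0.27 (SE) or 3.36-fold lower. The order of the 6 livers was identical to that of the first probe: control 1 highest, control 3 lowest of the controls, and MC-LR 1 lowest of all.

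The third Tubb2a probe, A_52_P621603, showed a smaller difference. It read 13.94, 13.65 and 13.91 in the controls and 12.20, 12.99 and 12.55 with MC-LR, a difference of -1.25 ± 0.25 (SE) or 2.38-fold lower. The annotation in the array file assigns it to the RefSeq transcripts of 4 genes (Tubb2a, Tubb2b, Tubb3 and Tubb6), while each of the other 2 probes is assigned to Tubb2a alone. Its control 3 value also departed from the other 2 probes, lying level with control 1 and not below control 2. The end of its sequence resembles the beginning of the brightest Tubb5 probe, A_52_P163796, and the pair are printed here because they show how alike the coding sequences of beta tubulins are. In the 25 bases where the 2 probes can be laid side by side, 22 are identical (88%), and these are in capitals. A_51_P103659, which is assigned to Tubb2a alone, follows in lower case.
Tubb2a A_52_P621603: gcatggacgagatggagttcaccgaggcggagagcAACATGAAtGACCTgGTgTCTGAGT
Tubb5 A_52_P163796: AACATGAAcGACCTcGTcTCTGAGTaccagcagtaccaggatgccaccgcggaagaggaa
Tubb2a A_51_P103659: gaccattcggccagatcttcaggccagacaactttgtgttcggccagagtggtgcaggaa

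In the coordinates of the array files, whose headers name mm9, A_52_P621603 lies at chr13:34166411-34166470 on the minus strand. A_51_P103659 spans chr13:34167380-34168088, and A_51_P490023 is listed at chr13:34166116-34166145, an interval shorter than its 60 bases. The Tubb5 probe A_52_P163796 lies at chr17:35971963-35972022. Exon and UTR annotation of that build was not used here.

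Tubb5, which encodes the widely expressed class I beta tubulin, differed by less. Probe A_52_P163796 read 12.87, 12.65 and 13.17 in the controls and 12.00, 12.41 and 11.97 with MC-LR, a difference of -0.77 ± 0.21 (SE) or 1.70-fold lower. The groups did not overlap, although MC-LR 2 and control 2 lay close together. The other probe, A_52_P163795, differed by -0.50 ± 0.24 (SE), and its groups overlapped, since MC-LR 2 at 12.28 lay just above control 2 at 12.25.

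Tubb4b, a class IV beta tubulin found in most tissues, was measured by 1 probe. It read 9.68, 9.87 and 10.24 in the controls and 8.94, 9.48 and 9.29 with MC-LR, a difference of -0.69 ± 0.23 (SE) or 1.61-fold lower. The groups did not overlap, and control 3 was the highest liver.

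The 2 probes of Tubb6, which encodes the class V beta tubulin, went in opposite directions. The brighter one, A_51_P421140, assigned to the RefSeq transcript, read 11.04, 11.12 and 11.82 in the controls and 10.19, 10.91 and 10.56 with MC-LR, a difference of -0.77 ± 0.32 (SE) or 1.71-fold lower. The other, A_52_P150903, read 7.65, 7.67 and 7.31 in the controls and 8.22, 8.08 and 8.25 with MC-LR, a difference of 0.64 ± 0.13 (SE) or 1.56-fold higher. Neither probe's groups overlapped. The second probe is assigned to a cDNA clone and to 0 RefSeq transcripts, and its listed coordinates run on the minus strand where those of the first run on the plus strand, so it may not report on Tubb6 mRNA.

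Tubb2b, the second class II gene and a neighbour of Tubb2a on chromosome 13, did not follow Tubb2a. It read 6.05, 7.09 and 4.97 in the controls and 6.77, 5.77 and 6.56 with MC-LR, a difference of 0.33 ± 0.68 (SE). The groups overlapped throughout, with control 3 the lowest liver and control 2 the highest.

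The alpha tubulins had a lower mean on all 7 of their probes, with log2 differences from -0.76 to -0.49 over the 6 arrays. Without control 3, 6 of the 7 probes lay below 0, the exception being Tuba8. Against control 3 alone all 7 did, but over a wide range from -2.28 for Tuba8 to -0.50. Tuba4a, an alpha tubulin whose gene does not encode the terminal tyrosine of the other common alpha isotypes, had the smallest scatter. Its brightest probe, A_52_P676271, read 14.10, 14.19 and 14.22 in the controls and 13.34, 13.65 and 13.55 with MC-LR. The groups lay well apart, with a difference of -0.66 ± 0.10 (SE) or 1.58-fold lower, and the control SD was 0.06. The 2 other probes differed by -0.57 ± 0.10 and -0.49 ± 0.07 (SE), also with no overlap.

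Probes at both ends of the measured stretch of Tuba4a are printed, in lower case, to show that like differences came from sequences that do not overlap each other. They lie at chr1:75212307-75212366 and, across an intervening gap, at chr1:75213535-75213830 (mm9, minus strand).
Tuba4a A_52_P676271: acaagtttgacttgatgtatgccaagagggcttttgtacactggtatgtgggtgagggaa
Tuba4a A_52_P409498: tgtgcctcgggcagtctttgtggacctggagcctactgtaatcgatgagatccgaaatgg

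Tuba1c, a widely expressed alpha tubulin, was lower on both of its probes. The brighter one, A_52_P479099, read 15.20, 15.43 and 15.82 in the controls and 14.48, 14.85 and 14.85 with MC-LR, a difference of -0.76 ± 0.22 (SE) or 1.69-fold lower. The less bright one differed by -0.57 ± 0.20 (SE), and on neither probe did the groups overlap.

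Tuba1a, the main alpha tubulin of developing neurons, read 10.07, 10.21 and 10.82 in the controls and 9.66, 10.12 and 9.69 with MC-LR. The difference was -0.54 ± 0.27 (SE), and the groups overlapped, because MC-LR 2 lay between controls 1 and 2. Tuba8, a divergent alpha tubulin, read 5.84, 5.63 and 8.41 in the controls and 5.78, 6.96 and 5.65 with MC-LR. Its difference of -0.50 ± 0.99 (SE) turned on control 3, which lay 2.68 above the mean of controls 1 and 2, and without control 3 the difference was 0.40.

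The choice of control mattered for many of the other genes as well. Control 3 was the highest control for 10 of the 16 probes and for 7 of the 9 brightest probes, and MC-LR 2 was the highest exposed liver for 8 of those 9. Against control 3 alone, the only control on the slide of the exposed livers, the median log2 difference was -0.997 over the 16 probes and 14 of them lay below 0, where 46.1% of all tested probes did. Against controls 1 and 2, which leaves slide and group confounded, the median was -0.53, again with 14 below 0, though not the same 14, since Tubb2b then fell to -0.21 and Tuba8 turned positive. Among the 9 brightest probes, those of Tuba4a and Tubb2a depended least on the choice of control. The brightest Tuba4a probe differed by -0.71 against control 3 and by -0.63 against controls 1 and 2, and the brightest Tubb2a probe by -1.73 and -2.07. For Tubb6 the corresponding values of the brighter probe were -1.27 and -0.53, for Tuba1a -0.99 and -0.32, for Tubb4b -1.003 and -0.54, and for Tubb5 -1.04 and -0.63.

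**Figure D2:**
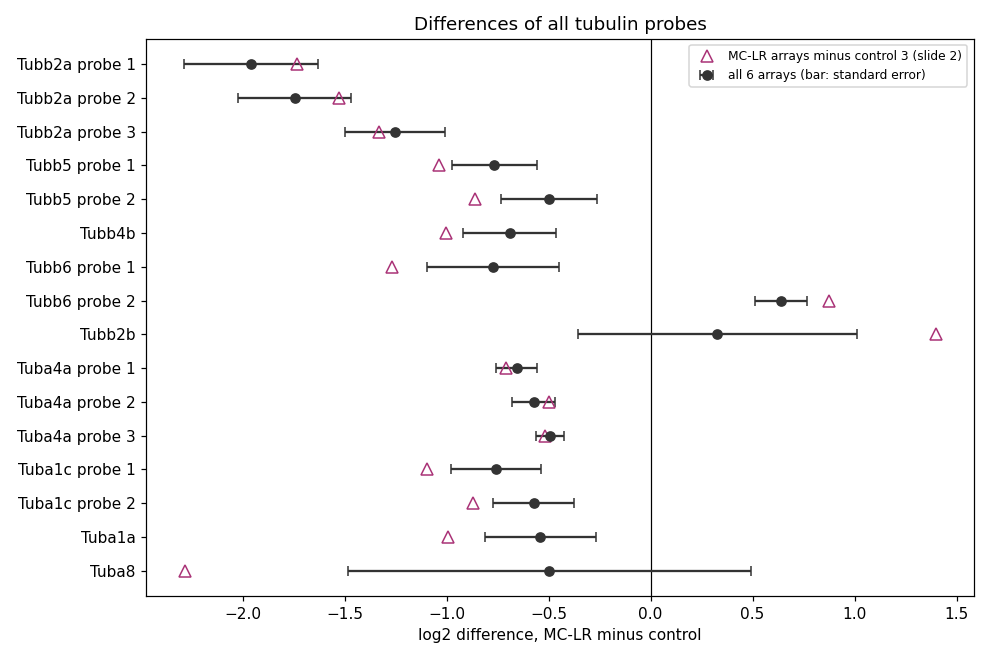
Log2 difference between MC-LR and control (horizontal axis) for each of the 16 tubulin probes (vertical axis; probe 1 is the brightest of its gene). Circles use all 6 arrays with the standard error as a bar, and triangles set the 3 MC-LR arrays against control 3 on slide 2; Tubb2a lies farthest left by the circles, and 14 of the 16 triangles lie below 0.

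The genes also varied together from liver to liver within the groups. Over the 36 pairs of the 9 brightest probes, the deviations of the 6 arrays from their group means correlated with a median r of 0.63, and 27 pairs (75%) were positive. Over all pairs of tested probes the median was 0.01, and 50.3% were positive. Control 3, alone among the controls on slide 2, had a median deviation of 0.31 over the 9 probes, against -0.25 and -0.10 in controls 1 and 2. Without control 3, which leaves each group on a single slide, the median r was 0.68 over 5 arrays and 28 of the 36 pairs (77.8%) were positive. Over all pairs of tested probes the median was then 0.01, and 50.2% were positive. All of these points share the same RNA samples and arrays. Over the 6 arrays, the closest included Tubb4b with Tubb6 (r = 0.98), Tuba1c with Tubb4b (r = 0.96), Tuba1a with Tuba8 (r = 0.96) and Tuba1a with Tubb6 (r = 0.95). The Tuba8 value rests largely on control 3, which deviated by 1.785 from its control mean. Tubb2a stood aside, with r between -0.22 and 0.61 and a median of 0.16 to the 8 others, and Tubb2b was negative to all 8, with a median r of -0.76.

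Several marker lists of other liver cell types were also high in control 3 or MC-LR 2. The mean log2 signal of 9 Kupffer cell and macrophage markers was 11.60, 11.69 and 12.52 in controls 1, 2 and 3 and 11.25, 11.62 and 11.97 in MC-LR 1, 2 and 3. All 9 genes had a mean difference below 0, with a median of -0.32, and of -0.84 against control 3. The list mean leans on Marco, at 8.06, 8.98 and 11.18 in the controls and 9.08, 7.67 and 10.93 with MC-LR. Clec4f alone of the 9 was not highest in control 3, reading 13.35, 13.27 and 13.09 in the controls. The mean log2 signal of 5 cholangiocyte markers, with Cftr not measured above background, was 8.13, 7.71 and 8.81 against 7.78, 8.63 and 7.70. That of 8 markers of proliferating cells was 7.02, 6.84 and 7.65 against 7.09, 8.08 and 6.96. Of these 8 genes, 7 had a mean difference above 0, with a median of 0.27, and of -0.28 against control 3. Control 3 was thus the highest control in each of these 3 lists, and MC-LR 2 was the highest exposed liver in the last 2.

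Stellate cell and fibroblast markers (8 of 8 measured) ranged from 10.03 to 10.61 in controls and from 9.96 to 10.36 with MC-LR, with 7 of 8 genes below 0. The exception was the stellate cell marker Lrat, higher by 0.95 ± 0.33 (SE) with groups apart, and by 0.20 against control 3. Lymphocyte markers (7 of 7) ranged from 7.55 to 8.19 in controls and from 7.44 to 7.84 with MC-LR. Endothelial markers were the only such list whose groups lay apart, with 10.10 to 10.17 in controls and 9.66 to 9.98 with MC-LR, and all 8 of its genes had a mean difference below 0. Their median was -0.36, and -0.11 against control 3. Of nerve markers, Snap25, Stmn2 and Gap43 were not well above background in either group, and Tubb3, the neuronal beta tubulin, was the single one measured. Of red blood cell markers, 2 of 4 were measured, at 14.59 to 15.22 in controls and 14.46 to 14.70 with MC-LR. No gene of the 9 marker lists passed an adjusted p under 0.05 by limma. Before adjustment, a limma p under 0.05 was reached by 1 higher and 1 lower of 8 stellate cell genes and 2 lower of 8 endothelial genes. The same p was reached by 1 lower of 5 cholangiocyte genes, and by 12.9% of all tested probes in either direction. The part of these cell types in the tubulin values was not tested.

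**Figure D3:**
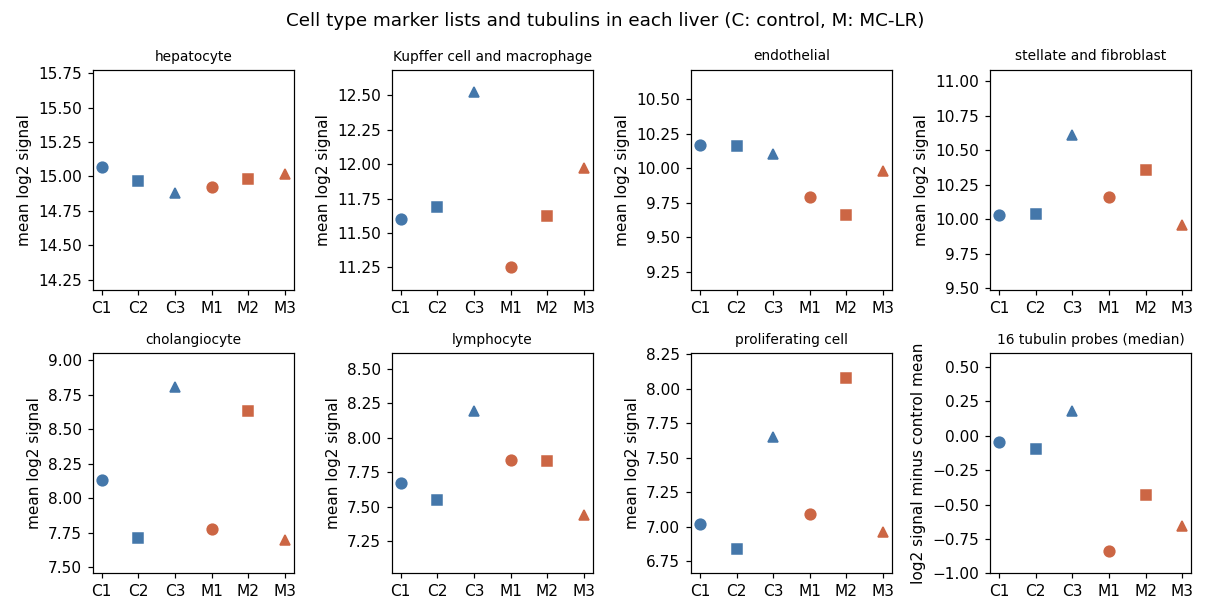
Mean log2 signal (vertical axes) of 7 cell type marker lists in each of the 6 livers (horizontal axes; C controls, blue; M MC-LR, orange), with the median deviation of the 16 tubulin probes from their control means in the last panel. Control 3 is high for Kupffer cell, stellate, cholangiocyte and lymphocyte markers, and the tubulin median falls from between -0.10 and 0.18 in controls to between -0.84 and -0.43 with MC-LR.

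The median difference over the other genes of microtubule biology was near 0. Of 123 listed genes that are not among the 10, 111 were measured, 52 of them above 0 and 59 below, with a median log2 difference of -0.01. In limma with Benjamini-Hochberg adjustment over all probes, 0 passed in either direction. Before adjustment, 5 higher and 7 lower genes had a limma p under 0.05, beside 12.9% of all tested probes in either direction. The MC-LR arrays all lay below the controls for 19 of the 111 genes and all above for 8, beside the 8.55% and 11.7% of all tested probes given earlier. Of the 111, 108 were well above background on all 6 arrays, with 50 above 0, 58 below and a median of -0.01. Among these 108, 4 were higher and 6 lower at an unadjusted p under 0.05 by limma. Their MC-LR arrays all lay below the controls for 19 and all above for 7.

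The list nearest to the 10 genes holds the remaining tubulins. Of its 10 genes 7 were measured, 2 above 0 and 5 below, with a median log2 difference of -0.22. Tuba3a, an alpha tubulin best known from testis, read 11.40, 11.46 and 11.91 in the controls and 10.81, 11.34 and 11.07 with MC-LR, which is -0.52 ± 0.20 (SE; adjusted p = 0.365, limma). Its groups lay apart, with control 3 highest, and Tuba3b had no probe under its name. The gamma tubulin Tubg2 was well above background in 3 of 3 controls and 1 of 3 MC-LR livers, so it entered the comparison only through the group where it was higher, and no difference is given for it. It read 4.41, 4.92 and 3.65 in the controls and 3.41, 3.76 and 3.21 with MC-LR, with overlapping groups. Tubg1, the main gamma tubulin, differed by 0.15, by 0.40 against control 3 and by 0.03 against controls 1 and 2. Tubb3 differed by -0.22, and by 0.00 against control 3. Tubb4a, another beta tubulin, differed by -0.25, by -0.665 against control 3 and by -0.04 against controls 1 and 2, with overlapping groups.

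Tubulin folding and autoregulation genes, which hold the tubulin cofactors, prefoldin, the CCT chaperonin and Ttc5, were all measured (24 of 24), with 13 above 0, 11 below and a median of 0.04. Tbcc, tubulin cofactor C, differed by -0.43 ± 0.13 (SE; adjusted p = 0.303, limma) and Arl2, a GTPase that works with the cofactors, by 0.30 ± 0.11 (adjusted p = 0.347, limma). Of the modifying enzymes 18 of 21 were measured, with a median of -0.08, and the 2 with the smallest p were the tubulin glutamylase genes Ttll9 and Ttll5. Ttll5 differed by 0.27 ± 0.10 (SE; adjusted p = 0.346, limma). Ttll9 was well above background in 1 of 3 controls and 3 of 3 MC-LR livers, so it too entered only through the group where it was higher. It read 3.61, 3.72 and 3.98 in the controls and 4.40, 4.01 and 4.52 with MC-LR. The median of -0.08 includes Ttll9, and no difference is given for it.

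Microtubule-binding, stabilising and severing proteins (28 of 33 measured) had a median of 0.02. Map1a, well above background in 2 of 3 controls and 3 of 3 MC-LR livers, is included in that median. Map1b, a neuronal microtubule-associated protein, differed by -1.21 ± 0.38 (SE; adjusted p = 0.309, limma), with overlapping groups and a difference of -0.40 against control 3. Tppp, which promotes tubulin polymerisation, differed by 0.97 ± 0.31 (adjusted p = 0.312, limma). The gamma-tubulin ring complex (8 of 8) had a median of -0.03, with Mzt1 at 0.23 and Tubgcp5 at -0.22. The motors (26 of 27) had a median of -0.03, with Dynll1, a light chain of dynein and of many other complexes, at -0.74 ± 0.23 (SE; adjusted p = 0.305, limma) and the dynactin subunit Dctn5 at -0.22.

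**Figure D4:**
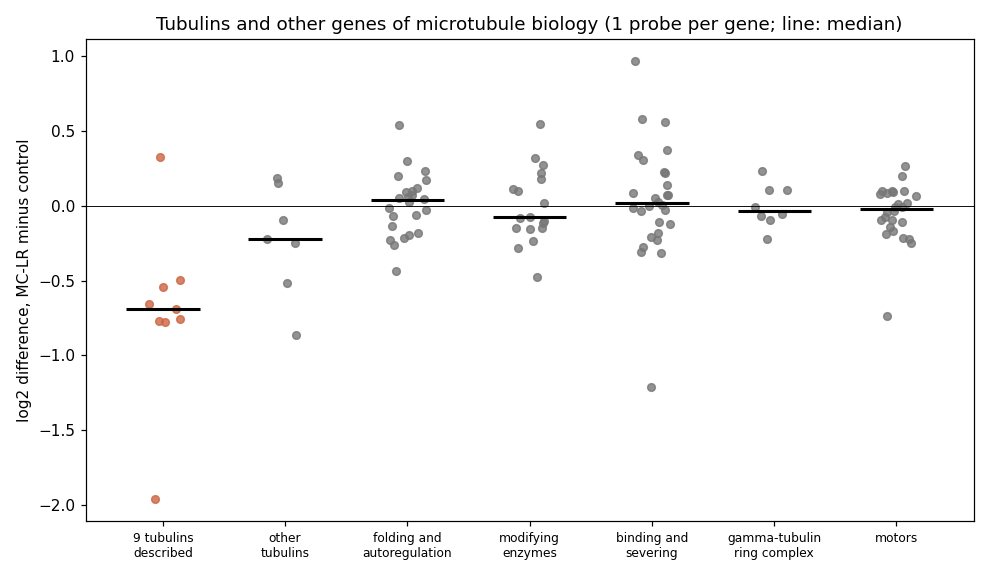
Log2 difference between MC-LR and control (vertical axis) of the 9 tubulins and of 6 lists of other microtubule genes (horizontal axis); each point is 1 gene by its brightest probe, and lines are medians. The tubulin median is -0.69, and the medians of the 6 other lists lie between -0.22 and 0.04. Those lists include Tubg2, Ttll9 and Map1a, which were not well above background on all 6 arrays.

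Outside the microtubule genes, the genes most like Tubb2a were sought by Pearson correlation of log2 signal over the 6 arrays, among 221 named genes that differed by at least 1 and were well above background on all arrays. The 6 closest were Pdzrn3, a ubiquitin ligase (r = 0.993), Cdkn1a, the cyclin-dependent kinase inhibitor p21 (r = 0.990), Fermt1, an integrin-binding kindlin (r = 0.986), the growth factor Pdgfc (r = 0.976), Cyb561 (r = 0.968) and Armcx4 (r = 0.965). All 6 were lower with MC-LR, by -1.91 for Cdkn1a and by -1.43 to -1.12 for the others. Cdkn1a read 11.48, 11.02 and 10.49 in the controls and 8.56, 9.55 and 9.14 with MC-LR, the same order of livers as the brightest Tubb2a probe. Since these genes were required to differ between the groups, a high r is a feature of the selection.

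Promoter windows, from 250 bases before to 50 after the annotated start, were given by RefSeq (GRCm38.p6) for 8 of the 10 genes. Sequences of 3 beta tubulins that were lower together but to different degrees are shown. In the Tubb2a window the capitals mark the cAMP response element TGACGTCA and the TATA sequence TATAAA, in Tubb5 the E-box CACGTG and the CCAAT box, and in Tubb4b the CCAAT box, each searched on both strands. The printed stretches end before the start: chr13:34078009-34078258 for Tubb2a, chr17:35838311-35838436 for Tubb5 and chr2:25224703-25224952 for Tubb4b, all on the minus strand.
Tubb2a: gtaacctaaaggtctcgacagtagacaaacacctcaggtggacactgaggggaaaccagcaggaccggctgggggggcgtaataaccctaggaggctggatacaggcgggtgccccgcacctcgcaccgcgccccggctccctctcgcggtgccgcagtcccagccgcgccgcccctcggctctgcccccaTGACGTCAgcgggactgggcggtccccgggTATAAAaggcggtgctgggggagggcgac
Tubb5: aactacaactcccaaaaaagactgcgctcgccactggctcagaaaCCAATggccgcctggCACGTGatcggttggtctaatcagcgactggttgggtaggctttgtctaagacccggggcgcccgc
Tubb4b: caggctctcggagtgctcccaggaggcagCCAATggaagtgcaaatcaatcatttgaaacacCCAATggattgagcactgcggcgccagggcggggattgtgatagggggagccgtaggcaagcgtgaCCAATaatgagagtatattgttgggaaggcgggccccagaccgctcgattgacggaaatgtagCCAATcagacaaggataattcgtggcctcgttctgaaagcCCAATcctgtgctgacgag

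TGACGTCA was present in the window of Tubb2a and in none of the other 7 tubulin windows, and 1.79% of all 32851 windows of this length held it. CACGTG was present in Tubb5 and Tuba8, beside 7.15% of all windows. CCAAT occurred 5 times in Tubb4b, 2 times in Tubb5 and once each in Tuba1a and Tuba1c, and 37.4% of all windows held it at least once. TATAAA was present in Tubb2a and Tubb4b, beside 13.6% of all windows. The Tubb4b match is not in its printed stretch, so it does not lie wholly before the start. The GC-box sequence GGGCGG, not put in capitals, occurred 2 times each in Tubb2a, Tubb4b, Tubb5, Tuba1b and Tuba4a and once in Tuba1a, beside 35.7% of all windows. The printed Tubb5 stretch covers only positions -135 to -10 from the start, so it does not show all of the CCAAT and GGGCGG matches counted in its window. These matches describe the letters of the windows alone.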

How the data were processed

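Per the labels, total RNA of each liver was amplified, labelled with Cy3 and hybridised to 1 array, and per the submitters' processing notes spots were read with Agilent Feature Extraction 10.7. The deposited value table holds log2 signals that the authors quantile normalized between arrays in GeneSpring, per the series' design text. Its columns correlated at r = 0.998 to 1.000 with log2 of the same array's processed signal intensity in the deposited scanner files, share a median of 5.94, are not centred by gene, and rise with signal.

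These log2 values were used here, with every probe as its own feature. A probe entered the comparison where each array of either group showed it well above background (28500 of 41174), and values whose spots all carried an outlier flag were left out (30 probes, none of a tubulin). The test was two-sided limma (version 3.58.1, under R 4.3.3; lmFit, then eBayes) with Benjamini-Hochberg adjustment over all probes kept and a threshold of 0.05, after the steps were tested on simulated data. The SE of a tubulin difference comes from the 2 group SDs, and that of other genes from limma. Each gene outside the tubulins is represented by its brightest kept probe, named through GRCm38.p6 RefSeq accessions (27668 probes), symbols or synonyms (6060) or the file's own name (7446).

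The members and lists were chosen with earlier results of these data known. All members are named. Of each other list the genes past the threshold are named, else the 2 with the smallest p. The 6 genes most like Tubb2a follow the rule given with them. Tubg1, Tubb3 and Tubb4a were named after their values were seen. Alternatives were scanner values quantile normalized here (processed signals under 1 set to 1), 75th percentile and median scaling, normexp with offset 50 on the mean and background intensity of the deposited files, other filters, 1 probe per gene, eBayes with trend and robust options, a block for slide or for replicate number, slide 2 alone, and each array left out. Some probe sequences are not reported here.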

Additional observations from a re-analysis of the deposited data

How the results depend on the processing

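No tubulin probe and no gene of the other microtubule lists passed limma's adjusted threshold under any of the 18 settings run. The number of probes passing over all probes (3 higher, 0 lower) fell to 1 higher under 75th percentile scaling, median scaling and the filter on all 6 arrays. A block for slide gave 9 higher and 6 lower, and slide 2 alone 0 higher (3327 at an unadjusted p under 0.05, limma), where 2 probes could not be fitted. With each array left out it ranged from 1 to 57 higher and from 0 to 15 lower. The 57 and 15 came without control 3, which leaves slide and group confounded, and the 1 came without MC-LR 1. The replicate block gave 0 higher (limma; 2888 at an unadjusted p under 0.05). Arrays with the same replicate number had deviations from their group means that correlated at 0.17, -0.31 and -0.18, and not every array correlated best with its own number. With 3 arrays per group and 2 slides, these values cannot settle whether the numbers pair the mice.

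The median tubulin difference of -0.61 (16 probes) became -0.997 with slide as a block and within slide 2, and ranged from -0.77 to -0.53 with each array left out. In every setting with all 16 probes, 14 lay below 0. Several of these settings could not change that count. The filters, the replicate block and the eBayes options leave each tubulin difference as it was. A slide block gives the same differences as slide 2 alone, since slide 1 holds controls only. Over the settings the brightest Tubb2a probe ranged from -2.17 to -1.69, the brightest Tuba4a probe from -0.73 to -0.56, Tuba8 from -2.28 to 0.40 and Tubb2b from -0.21 to 1.40. All 16 probes were well above background, yet normexp background correction changed some of the dimmer ones, with A_51_P103659 of Tubb2a going from -1.75 to -1.40, A_52_P150903 of Tubb6 from 0.64 to 0.48, Tubb2b from 0.33 to 0.09 and Tuba8 from -0.50 to -0.34. The correlations among tubulins without control 3 were added after seeing the data. The 3 mice per group leave the spread of each gene poorly known.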
